A study of Mus musculus with 18 samples.

Results

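The cytosolic and mitochondrial heat shock chaperones described here are 10 genes chosen by symbol, out of 20683 genes in the count table. They are the HSP70 gene Hspa8, its exchange factors Hspa4 and Hsph1, its J-domain partners Dnaja1 and Dnajb1, the HSP90 genes Hsp90aa1 and Hsp90ab1, and the mitochondrial chaperone genes Hspa9, Hspd1 and Hspe1. All 10 were found in the count table and at kept harringtonine positions, and all 10 passed the filters on low counts in RNA and in coding footprints. The study profiled ribosomes in mouse erythroblasts, the precursors of red blood cells, grown from fetal livers of FVB/n x C57BL/6 mice. Every group carried the genotype Trp53 -/-, so no group has intact Trp53. The StemPro medium of all groups held erythropoietin (Epo), dexamethasone at 1 nM and a supernatant with stem cell factor. Cells were left untreated or given tunicamycin at 2.5 ug/ml for 1.5 h, an inhibitor of N-glycosylation used, per the series design, to bring about eIF2 phosphorylation. Each treatment was measured in 3 libraries of total RNA, 3 of footprints of ribosomes that cycloheximide (5 min at 100 ug/ml) had stopped wherever they were, and 3 of footprints of ribosomes that harringtonine (at 2 ug/ml) had stopped at start sites, 18 samples in 6 groups.

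Heat shock chaperones bind unfolded proteins and help them fold, assemble, cross membranes or be degraded. HSP70 proteins bind short stretches of a client under the control of J-domain proteins, which speed ATP hydrolysis, and of exchange factors, which release ADP. HSP90 acts later on partly folded clients, and in mitochondria an HSP70 and a chaperonin ring with its lid take over proteins as they arrive from the cytosol. Many of these genes are switched on by heat shock factors, which bind repeats of the letters nGAAn in alternating orientation. Red cell precursors make large amounts of a few proteins, and HSP70 is known for protecting the transcription factor GATA1 in them. Tunicamycin puts its folding load on the endoplasmic reticulum (ER), whose own chaperones are not among the 10.

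RefSeq promoter windows (GRCm38.p6, 250 bases before to 50 after a start) were held for 6 of the 10 genes: Hspd1, Hspe1, Hspa4, Hsph1, Dnaja1 and Dnajb1. They were searched for heat shock element letters, since these are the genes' best known shared control sequence. The letters were GAANNTTC and TTCNNGAA, each of which reads the same on both strands, and 3 alternating units, that is both motifs overlapping by one of their outer triplets, in either order. GAANNTTC was in 7.86% and TTCNNGAA in 8.52% of all 32851 windows, whereas 3 units were in 0.603%. Windows of 3 of the 6 genes, Hspd1, Hspe1 and Hsph1, held 3 or more units. Those of Hspa4 and Dnajb1 held neither pair of units. The matches are printed below with the units in capitals, each on its gene's strand.
Hspe1, 4 units, chr1:55088054-55088081, + strand: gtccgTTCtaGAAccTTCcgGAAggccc
Hspd1, the same bases on the - strand: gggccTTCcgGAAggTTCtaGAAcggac
Hsph1, 3 units, chr5:149636283-149636305, - strand: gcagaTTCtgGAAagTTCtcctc
Hsph1, 2 units, chr5:149636357-149636374, - strand: aatctTTCtcGAAggctc
Dnaja1, 2 units, chr4:40722339-40722356, + strand: ctctaGAAaaTTCtacga
Hspd1 and Hspe1 lie head to head and overlap at their starts (chromosome 1, 55077833 to 55088243 on the - strand and 55088148 to 55091317 on the + strand), so 1 element of 4 units lies in the promoter windows of both. Its units end 72 bases before the Hspe1 start and 127 bases before the inner of 2 annotated Hspd1 starts. The window of the outer Hspd1 start held 0 units, and seen from that start the element lies inside the gene. The 3-unit match of Hsph1 begins 15 bases after the inner and 36 bases after the outer of the 2 starts its windows were built on. A match is a description of letters, not of a factor bound there.

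The cells carried the markers of their label. All 10 erythroid markers listed, among them Gata1, Klf1 and Car2, had a mean of at least 5 CPM of RNA (counts per mega, that is 1e6, reads of a library), and their sum was 5182 to 5462 CPM in untreated and 5124 to 5363 CPM in tunicamycin libraries. Of 7 macrophage, 8 neutrophil and monocyte, 6 hepatocyte and 6 endothelial or stromal markers, 0 reached 5 CPM, and each of these lists summed to at most 2.18 CPM in every library. Megakaryocyte markers, mostly Gp5, summed to 106 to 135 CPM and mast cell markers, mostly Ms4a2, to 105 to 172 CPM, and their part in the results was not tested. RNA libraries held 12.9 to 49.0 M (mega) reads, and cycloheximide libraries held 4.53 to 6.65 M reads on coding sequence and 0.275 to 0.590 M on 5' leaders. As a check of the treatment, coding footprints of Atf4, the transcription factor made when eIF2 is phosphorylated, rose by log2 2.18 ± 0.11 and those of its target Ddit3 by 2.45 ± 0.23 (SE, adjusted p = 2.33e-08 and 5.45e-05). In bulk samples, fewer cells of a type and less RNA per cell cannot be told apart. Whether replicates came from separate cultures or animals is not stated in the labels, and p-values therefore measure the spread between samples only, which may be technical.

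RNA of the 10 chaperones moved by small amounts after tunicamycin. By edgeR's quasi-likelihood test with Benjamini-Hochberg adjustment over 10643 genes, 0 of the 10 passed at an adjusted p under 0.05, against 0.15% of all genes tested. An unadjusted p under 0.05 was reached by 4 of the 10 (Hspa4, Hsp90aa1, Hspa9 and Hspd1), against 12.4% of all genes, and DESeq2 called 0. The log2 changes of the 10 ran from -0.08 to 0.21 with a median of 0.15, and the median of all genes tested was -0.01.

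Among the cytosolic HSP70 genes, Hspa8, the constitutive HSP70, had 1036, 1269 and 1338 CPM in untreated replicates 1 to 3 and 1158, 1396 and 1516 CPM under tunicamycin. The groups overlapped, and the change was log2 0.17 ± 0.11 (adjusted p = 0.557). Hspa4, an HSP110 exchange factor, had 543, 543 and 557 CPM against 605, 613 and 643 CPM. Its groups did not overlap. Here and below this is a description only, since the share of all genes without overlap was not counted. With 3 libraries against 3, full separation allows a 2-sided exact permutation p of 0.1 at the smallest. The Hspa4 change of 0.19 ± 0.06 missed the threshold (adjusted p = 0.271) and passed once the replicate number entered as a block (0.19 ± 0.04, adjusted p = 0.0483). With that block 410 genes (3.85%) passed in place of 16, and Hspa4 was the 1 chaperone among them. Hsph1, the heat-inducible HSP110, was the most variable of the 10, at 220, 265 and 362 CPM untreated and 258, 301 and 347 CPM under tunicamycin (0.11 ± 0.15, adjusted p = 0.815).

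The J-domain genes differed little between treatments. Dnaja1 had 195 to 261 CPM untreated and 220 to 271 CPM under tunicamycin (0.13 ± 0.10, adjusted p = 0.623). Dnajb1, the usual partner of heat-inducible HSP70, had 104 to 131 CPM and 107 to 118 CPM (-0.07 ± 0.08, adjusted p = 0.781). In both treatments Hspa8, Hspa4, Hsph1, Dnaja1, Dnajb1 and Hsp90ab1, 6 of the 10, were lowest in replicate 1 and highest in replicate 3. That arrangement was found in 8.35% of all genes tested in RNA. Replicate 3 was the shallowest untreated library (12.9 M reads) and the deepest tunicamycin library (43.5 M).

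Of the HSP90 genes, Hsp90aa1, the inducible isoform, had 1350, 1297 and 1442 CPM of RNA untreated and 1492, 1485 and 1621 CPM under tunicamycin. These groups did not overlap (0.18 ± 0.07, adjusted p = 0.341). Hsp90ab1, the constitutive isoform, had 2652 to 2808 CPM and 2768 to 3238 CPM (0.15 ± 0.07, adjusted p = 0.430). The Hsp90aa1 reads per Hsp90ab1 read were 0.497 ± 0.024 untreated and 0.509 ± 0.027 under tunicamycin (SD, n = 3), a difference smaller than the spread (2-sided exact permutation p = 0.6). In the mitochondrial group, Hspd1, which encodes the HSP60 ring, had 809, 753 and 850 CPM against 918, 906 and 944 CPM, without overlap (0.21 ± 0.06, adjusted p = 0.283). Hspa9, mitochondrial HSP70, had 868 to 969 CPM and 993 to 1056 CPM, also without overlap (0.16 ± 0.06, adjusted p = 0.369). Hspe1, which encodes the HSP10 lid of the ring, went the other way in value, with 580, 617 and 606 CPM against 556, 584 and 554 CPM (-0.08 ± 0.06, adjusted p = 0.625).

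**Figure D1:**
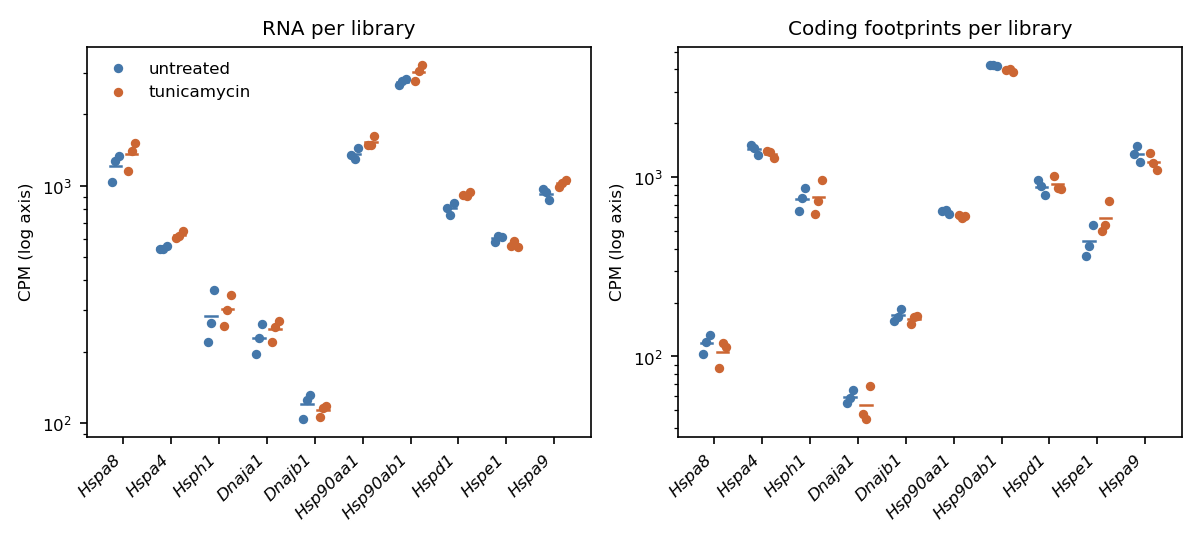
RNA (left) and coding footprints (right) of the 10 chaperone genes in CPM, on log axes; dots are the 3 libraries of each treatment and bars their means. Untreated and tunicamycin libraries lie close together for every gene, with Hspe1 footprints the widest apart (means of 438 and 593).

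Hspd1 (at its inner start) and Hspe1 share the element printed above and encode 2 parts of 1 machine, so their ratio was compared within each library. Hspe1 RNA reads per Hspd1 RNA read were 0.717, 0.820 and 0.713 untreated and 0.606, 0.644 and 0.587 under tunicamycin. Every tunicamycin library lay below every untreated one, with means of 0.750 ± 0.060 and 0.612 ± 0.029 (SD, n = 3, 2-sided exact permutation p = 0.1, the smallest that 3 against 3 allows, and 0.4 adjusted over 4 ratios). In coding footprints the ratio was 0.376, 0.460 and 0.676 untreated and 0.496, 0.617 and 0.861 under tunicamycin. The 2 groups overlapped there, with the higher mean under tunicamycin (0.658 ± 0.186 against 0.504 ± 0.155, exact permutation p = 0.4, adjusted 0.8). The ratios are of reads, not of molecules, since lengths were not used. RefSeq lists 23 pseudogenes named after Hspd1 and 7 named after Hspe1, and 1 each after Hspa9 and Dnaja1. The count table holds 0 of these, and the sources used here do not give how a read that fits a gene and its copy was counted.

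Changes in coding footprints were also small, apart from Hspe1. Of the 10 chaperones 0 passed among 9265 genes tested by edgeR, against 2.58% of all genes. Hspe1 was the 1 gene of the 10 at an unadjusted p under 0.05, reached by 16.6% of all genes, and DESeq2 called 0. The median change was log2 -0.07, and apart from Hspe1 the values ran from -0.15 to 0.06.

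Hspe1 footprints came to 361, 413 and 539 CPM in untreated replicates 1 to 3 and 503, 539 and 736 CPM under tunicamycin. The groups overlapped, as the highest untreated library (539 CPM) lay above the lowest tunicamycin library (503 CPM). The change of 0.45 ± 0.14 missed the threshold (adjusted p = 0.105). Leaving out untreated replicate 3 gave 0.60 ± 0.14 (adjusted p = 0.0432) and leaving out tunicamycin replicate 1 gave 0.55 ± 0.13 (adjusted p = 0.0210). With all 6 libraries it also passed without a filter on low counts (0.44 ± 0.09, adjusted p = 0.00022) and with the replicate number as a block (0.45 ± 0.06, adjusted p = 0.00015, where 9.55% of all genes passed). The call thus depended on the libraries, the filter and the block. Its partner Hspd1 had 797 to 962 CPM against 856 to 1014 CPM (0.06 ± 0.10, adjusted p = 0.843), and Hspa9 had 1216 to 1492 CPM against 1103 to 1365 CPM (-0.14 ± 0.11, adjusted p = 0.569).

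Hspa8 had 103, 121 and 131 CPM of coding footprints untreated and 85.8, 118 and 112 CPM under tunicamycin, with overlapping groups (-0.15 ± 0.12, adjusted p = 0.570). Its exchange factors Hspa4 (1330 to 1513 against 1277 to 1406 CPM) and Hsph1 (645 to 869 against 621 to 969 CPM) changed by -0.07 ± 0.09 and 0.04 ± 0.13 (adjusted p = 0.759 and 0.916). Dnaja1, at 55.2 to 65.2 and 44.6 to 68.4 CPM, rested on only 202 to 418 reads per library (-0.14 ± 0.14, adjusted p = 0.683). Dnajb1 changed by -0.05 ± 0.09 (adjusted p = 0.857). Both HSP90 genes were slightly lower in value. Their CPM ranges did not overlap between treatments, which is a description only, since the share of all genes without overlap was not counted. Hsp90ab1 had 4173 to 4238 CPM against 3878 to 4033 CPM. Hsp90aa1 had 620 to 657 CPM against 590 to 617 CPM, and the fitted changes were -0.07 ± 0.08 and -0.08 ± 0.08 (adjusted p = 0.717 and 0.715). Their ratio was the same in both treatments within its spread, 0.153 ± 0.004 and 0.153 ± 0.006 (exact permutation p = 1).

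Translational efficiency, the ratio of coding footprints to RNA, had values below 0 for 8 of the 10, and the calls depended on the replicate block. It was tested as an interaction of assay and treatment over 12 libraries and 10082 genes, where 0 of the 10 passed by edgeR against 1.18% of all genes and DESeq2 called 0. An unadjusted p under 0.05 was reached by 5 of them, against 14.7% of all genes. With the replicate number as a block within each assay, 5 of the 10 passed, against 7.75% of all genes: Hspa8 (-0.33 ± 0.08, adjusted p = 0.0225), Hspa4 (-0.27 ± 0.07, 0.0304), Hsp90aa1 (-0.26 ± 0.07, 0.0444) and Hsp90ab1 (-0.23 ± 0.07, 0.0473) fell and Hspe1 rose (0.52 ± 0.08, 0.00098). Same-numbered libraries met the criterion for pairs (all correlations above 0.1) in RNA but not in footprints. The labels state no pairing of replicates, so the fit without the block stands first here and in RNA. The median change of the 10 was -0.24, beside -0.02 for all genes tested. Without the block, Hspa8 had the lowest value (-0.33 ± 0.17, adjusted p = 0.395), followed by Hspa9 (-0.30 ± 0.13, 0.304), Dnaja1 (-0.28 ± 0.18, 0.519), Hspa4 (-0.27 ± 0.11, 0.238), Hsp90aa1 (-0.26 ± 0.10, 0.211) and Hsp90ab1 (-0.23 ± 0.10, 0.297). Their standard errors overlap, so no order among these 6 is resolved. Hspd1 (-0.16 ± 0.13), Hsph1 (-0.07 ± 0.23) and Dnajb1 (0.01 ± 0.12) lay nearer to 0. Hspe1 was the 1 gene well above 0 (0.52 ± 0.18, adjusted p = 0.151), and it passed without untreated footprint replicate 3 (0.67 ± 0.16, adjusted p = 0.0390). Lower values were not particular to the 10. The median was -0.21 for 8 subunits of the cytosolic chaperonin CCT, with 7 below 0. It was also -0.21 for 18 ER chaperone and disulfide isomerase genes, with 16 below 0. Of these 18, Hyou1 passed without the block (-0.55 ± 0.12, adjusted p = 0.0347), and 7 passed with it, all lower.

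**Figure D2:**
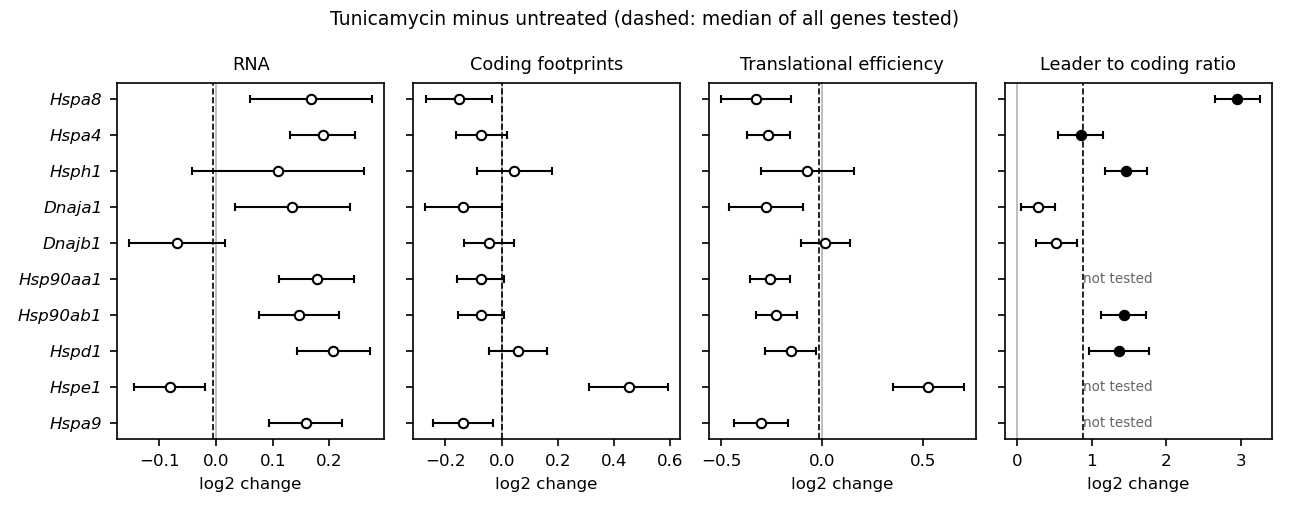
Log2 change (tunicamycin minus untreated) of each chaperone gene in RNA, coding footprints, translational efficiency and the ratio of leader to coding footprints, with bars of 1 standard error; each panel has its own scale, filled points passed at an adjusted p under 0.05 and dashed lines are medians of all genes tested. Points of the first 3 panels did not pass in this fit, which has no replicate block, and Hspa8 stands furthest to the right in the last (2.95).

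The amount of footprint per RNA before stress differed widely among the 10. As coding footprint CPM per RNA CPM, untreated Hspa8 stood at 0.0974, and only 4.2% of 10077 genes were lower. Its 3 footprint libraries, each set against the mean RNA of the untreated libraries, gave 0.0848 to 0.108, a spread of footprints only. Dnaja1 (0.261) and Hsp90aa1 (0.471) were also below the median of all genes (0.841), with 13% and 26.4% of genes lower. At the other end Hsph1 stood at 2.69 and Hspa4 at 2.62, above 96.0% and 95.6% of genes. Hsp90ab1 (1.53), Hspa9 (1.46), Dnajb1 (1.41) and Hspd1 (1.10) were above the median and Hspe1 (0.728) a little below it. The ratio sets footprints on the coding sequence against reads of the gene's whole RNA. It therefore also depends on how much of the RNA is coding sequence, and lengths were not used. The ranks among genes are descriptions with that limit. A search of RefSeq by name found 0 pseudogenes named after Hspa8, and copies under other names were not searched. The share of reads lost to near-identical copies was not tested, for Hspa8 neither in this ratio nor in its leader share below.

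Footprints on the 5' leader, the stretch before the main start codon, gave the largest changes, and Hspa8 the largest of the 10. Leader footprints became more frequent across the transcriptome: they made up 4.07% to 5.47% of all leader and coding footprints in untreated libraries and 7.86% to 10.4% under tunicamycin. The ratio of leader to coding footprints rose in 63.9% of the 4513 genes tested, with a median change of log2 0.89. Of the 10 chaperones 7 had enough leader reads to be tested, and 5 rose (Hspa8, Hsph1, Hsp90ab1, Hspd1 and Hspa4), a share near that background.

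Hspa8 had 33, 21 and 28 leader footprints in untreated replicates 1 to 3 and 109, 114 and 213 under tunicamycin, while its coding footprints went from 685, 781 and 841 to 426, 536 and 572. The leader share of the gene was 4.60%, 2.62% and 3.22% untreated and 20.4%, 17.5% and 27.1% under tunicamycin. All 3 tunicamycin libraries lay far above all 3 untreated ones, with 95% Wilson intervals of single libraries between 1.72% and 6.38% and between 14.8% and 30.4%, which cover counting error only. The ratio rose by 2.95 ± 0.30 (adjusted p = 0.000197), 2.06 above the median of all genes tested, and its unadjusted p was the smallest of the 4513. Of the 2886 genes that rose it had the largest change, and the 1 gene with a larger value, Aif1l, did not pass (3.58 ± 1.66, adjusted p = 0.0728; named after its value was seen). The rise of Hspa8 kept its call in all 10 alternatives, with values from 2.71 to 3.18.

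The exchange factors of Hspa8 had far smaller leader shares. Hsph1 had 69, 40 and 75 leader footprints untreated and 102, 110 and 174 under tunicamycin, and its share went from 1.58%, 0.799% and 1.33% to 3.20%, 3.17% and 3.41%. The groups did not overlap, and the ratio rose by 1.46 ± 0.28 (adjusted p = 0.00133), 0.57 above the median gene. Hspa4 shares were 0.945%, 0.795% and 1.54% against 1.43%, 1.93% and 2.45%, which overlap. Its rise of 0.85 ± 0.30 (adjusted p = 0.0241) was at the median of all genes and was lost when any of 4 libraries was left out, untreated replicate 1 (adjusted p = 0.0702), untreated replicate 2 (0.0737), tunicamycin replicate 2 (0.0540) and tunicamycin replicate 3 (0.106).

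The J-domain gene Dnaja1 had a large leader share already before stress. It carried 31.5%, 29.9% and 32.4% of its leader and coding footprints on the leader in untreated cells and 37.8%, 31.3% and 37.4% under tunicamycin. The groups overlapped and the ratio did not pass (0.28 ± 0.22, adjusted p = 0.255). Dnajb1 shares were 4.09% to 6.61% and 6.44% to 8.70% (0.53 ± 0.27, adjusted p = 0.0972), and it passed without untreated replicate 3 (0.73 ± 0.31, adjusted p = 0.0493). Both values lie below the median change of all genes tested, by 0.61 and 0.36.

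The HSP90 isoforms differed in their leader reads. Hsp90ab1 had 101, 64 and 61 leader footprints untreated and 114, 117 and 201 under tunicamycin, or 0.357%, 0.235% and 0.227% against 0.575%, 0.636% and 1.01% of its footprints. These groups did not overlap, and the ratio rose by 1.43 ± 0.30 (adjusted p = 0.00185). Hsp90aa1 had 2 leader footprints in the 6 libraries together and was not tested. Of the mitochondrial genes, Hspd1 had 10, 9 and 6 leader footprints untreated and 17, 21 and 12 under tunicamycin, and its ratio rose by 1.37 ± 0.40 (adjusted p = 0.00966). That call was lost without tunicamycin replicate 2 (1.09 ± 0.48, adjusted p = 0.0563). Hspe1, with 9 leader footprints untreated and 25 under tunicamycin, and Hspa9, with 8 and 22, were below the minimum for testing.

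**Figure D3:**
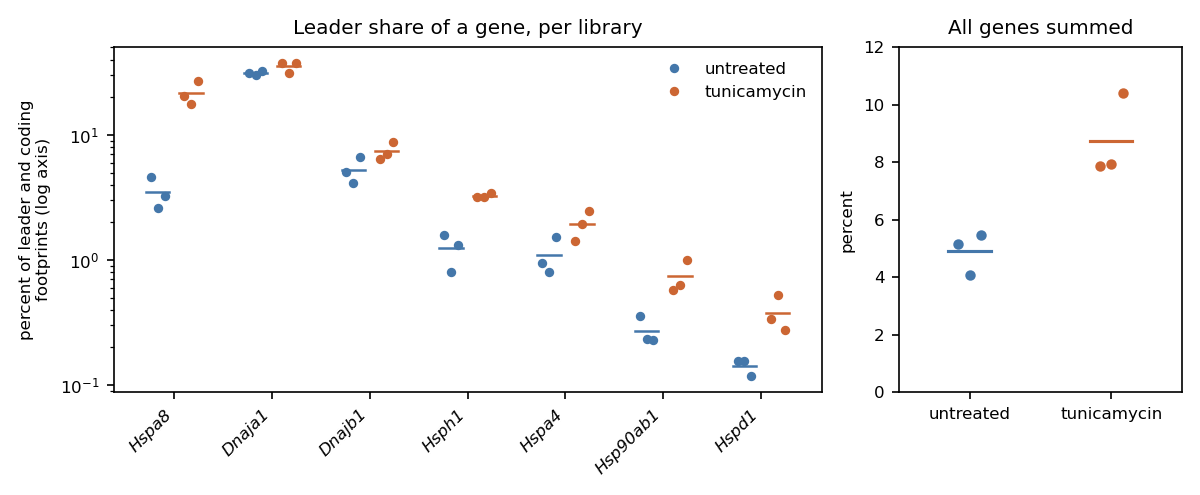
Left, the share of a gene's leader and coding footprints that lay on its leader, in percent on a log axis, for the 7 chaperone genes tested; right, the same share for all genes summed, on a linear axis. Dots are libraries and bars means; Hspa8 went from a mean of 3.48% to 21.7%, while all genes together went from at most 5.47% to at least 7.86%.

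Because leaders rose as a class, leader footprints were also compared among themselves, scaled to the leader reads of each library, a comparison added after the data had been seen. Hspa8 had 91.2, 76.4 and 75.4 CPM of leader reads untreated and 257, 292 and 361 under tunicamycin. It rose by 1.88 ± 0.22 (adjusted p = 6.69e-07), where 5.21% of 4469 genes rose, and the call held in all 9 alternatives. Only Fosb had a larger change (2.38 ± 0.46, adjusted p = 0.00122; named after its value was seen). Dnaja1 fell among leaders, from 467, 586 and 538 to 340, 235 and 353 CPM of leader reads (-0.79 ± 0.18, adjusted p = 0.00522), where 4.77% of genes fell. Its groups did not overlap, and the call was lost without tunicamycin replicate 2 (-0.61 ± 0.21, adjusted p = 0.0846).

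The other 5 chaperones tested among leaders did not pass. Hsph1 (0.57 ± 0.19, adjusted p = 0.0540) passed without untreated replicate 1 (0.62 ± 0.22, 0.0499) or 3 (0.66 ± 0.21, 0.0474), and Hsp90ab1 (0.42 ± 0.20, adjusted p = 0.186) passed without untreated replicate 1 (0.62 ± 0.22, 0.0450). Hspd1 (0.52 ± 0.41), Hspa4 (-0.15 ± 0.19) and Dnajb1 (-0.46 ± 0.21) had adjusted p of 0.484, 0.688 and 0.173. Hspa5, the ER relative of Hspa8, rose in both comparisons, by 1.67 ± 0.25 in the ratio and 1.04 ± 0.17 among leaders (adjusted p = 0.00065 and 0.000167). Its leader share went from 3.22% to 4.87% in untreated libraries to 10.3% to 14.1% under tunicamycin, below every tunicamycin library of Hspa8. The difference between Hspa8 and Hspa5 was not tested.

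Few footprints of the 10 genes lay on the 3' UTR, where all genes summed had 1.86% to 2.20% of their footprints per library. Hsph1 was the exception, with 4.06% ± 0.48 of its footprints there untreated and 3.15% ± 0.59 under tunicamycin (SD, n = 3), and overlapping groups. In the other genes the mean share was at most 0.896%, that of untreated Hspa8. Hspe1 had 0 of 17256 footprints on its 3' UTR, all libraries pooled, which allows a share of up to 0.0174%. A feature without a row in the deposited counts was also set to 0, so that bound holds only if this 3' UTR was counted. These shares were not tested.

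Harringtonine reads of the 10 genes at kept positions were mostly lower in value under tunicamycin, without passing. Summed per gene, 0 of the 10 passed by edgeR against 0.0272% of 3681 genes tested, 0 reached an unadjusted p under 0.05, against 3.61% of all genes, and DESeq2 called 0. The value was below 0 for 9 of the 10, with a median of -0.33 beside -0.01 for all genes tested. The lowest was Hspa9 (-0.75 ± 0.39), which rested on 14 to 50 reads per library, and Hspa8 was the 1 above 0 (0.11 ± 0.29). Every adjusted p of the 10 was 0.998. The 8 CCT subunits had a similar median of -0.29, with 6 below 0. Medians were -0.08 for 10 ER chaperone and disulfide isomerase genes, 0.14 for 7 further J-domain genes and 0.18 for 14 HSP90 cochaperones. The columns of these libraries are tied to a treatment only, and are called u1 to u3 and t1 to t3 here.

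Sites, in which positions within 10 nt were merged, were spread unevenly over the genes. The 10 genes had 54 sites, and Hsp90aa1 had 18, the most of any of the 4613 genes with a site, of which 60.8% had 1. Hspe1, Dnaja1 and Dnajb1 had 1 each. The Hspe1 site, 905 nt along the gene from its 5' end, held 1135, 755 and 1146 reads in u1 to u3 and 1390, 864 and 772 in t1 to t3. The Dnaja1 site, at 163 nt, ranged from 427 to 1152 reads untreated and from 427 to 1133 under tunicamycin, so libraries of 1 treatment differed by more than the treatments did. Distances run along the genome with introns included.

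Of the 54 sites 37 were tested, and 0 passed, as did 0% of all 5123 sites tested. An unadjusted p under 0.05 was reached by 2 of the 37, against 3.44% of all sites, and DESeq2 called 0. The value was below 0 at 30 of the 37, 13 of 13 in Hsp90aa1, though sites of 1 gene share their RNA and are not independent. The 2 sites were in Hsp90ab1 at 4376 nt, with 77, 67 and 31 reads untreated and 33, 20 and 48 under tunicamycin (-1.07 ± 0.41, edgeR adjusted p = 0.9997), and in Hspa8 at 66 nt.

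Hspa8 had 6 sites, on chromosome 9 between 40801305 and 40804683 (GRCm38, + strand). Its site 29 nt from the 5' end held 69, 19 and 53 reads untreated and 191, 42 and 32 under tunicamycin, so t1 alone lay above the untreated range. The value was 0.62 ± 0.58, and -0.56 without t1. The site at 66 nt held 9, 10 and 19 reads untreated and 30, 21 and 37 under tunicamycin, without overlap (0.92 ± 0.41, edgeR adjusted p = 0.9997). The 3 tested sites further along, at 1559, 1609 and 3407 nt, had values of -0.70 ± 0.53, -0.67 ± 0.47 and -0.81 ± 0.41, and did not pass either. The 2 sites within 500 nt of the 5' end held 53.1%, 34.1% and 53.7% of the gene's reads in u1 to u3 and 86.7%, 48.8% and 61.6% in t1 to t3, which overlap (47.0% ± 11.1 and 65.7% ± 19.2, SD, n = 3).

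The share of reads near the 5' end differed among the other genes more than between treatments. In Hsp90ab1 sites at 64 and 82 nt held 64.3% ± 7.98 of its reads untreated and 71.4% ± 2.36 under tunicamycin, and in Hspa4 4 sites within 500 nt held 83.4% ± 5.45 and 86.8% ± 7.23. In Hsp90aa1 the 1 site within 500 nt held 2.93% ± 1.38 and 3.62% ± 2.72, and its highest site lay 4166 nt along the gene. RefSeq's gene start is the outermost annotated one, so distances from the start in use may be shorter.

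**Figure D4:**
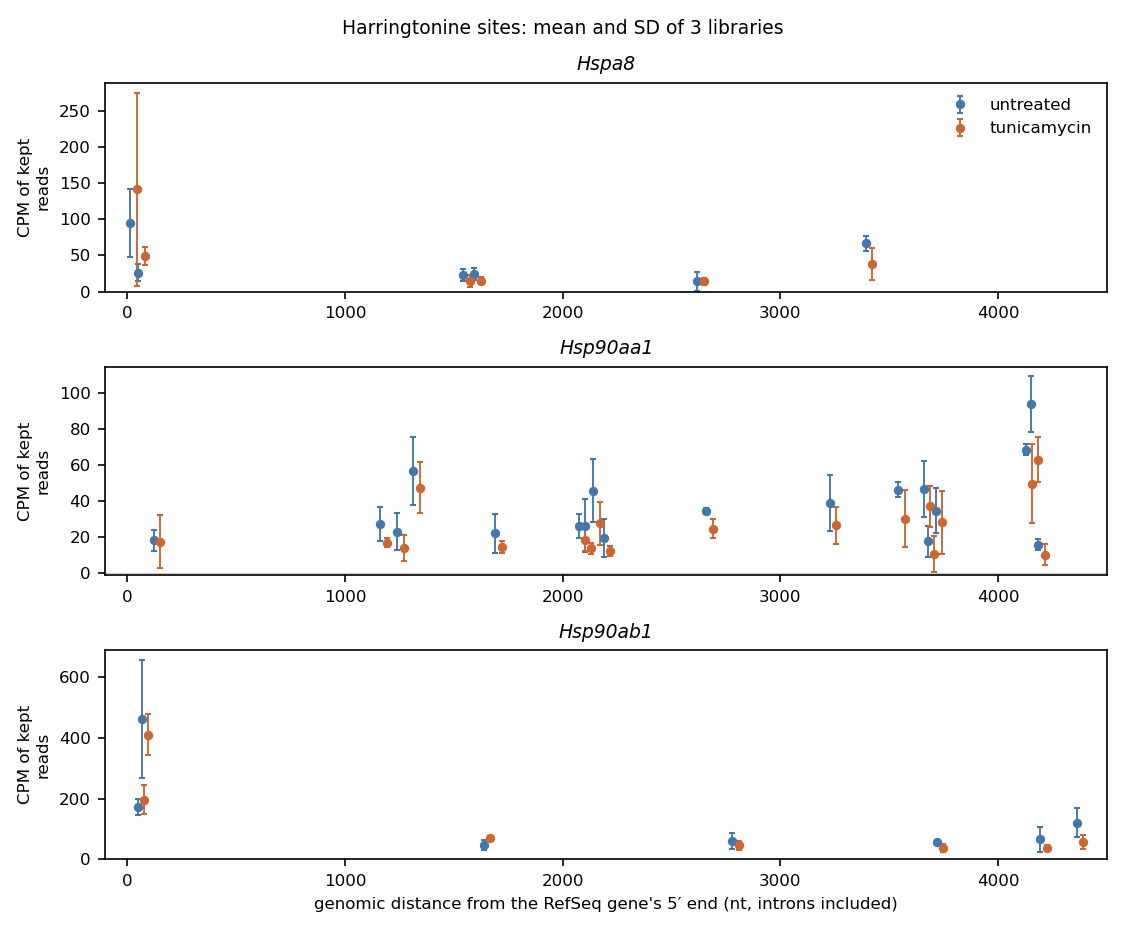
Harringtonine reads, in CPM of reads at kept positions, for each site of Hspa8, Hsp90aa1 and Hsp90ab1, against genomic distance from the gene's 5′ end; dots are means and bars SDs of 3 libraries, drawn slightly apart for the 2 treatments, and each panel has its own scale. Reads of Hspa8 and Hsp90ab1 gather near the 5′ end, whereas 17 of the 18 Hsp90aa1 sites lie beyond 500 nt.

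Without the replicate block, few genes that work with the 10 passed in RNA, coding footprints or translational efficiency, where few of all genes passed either. Of 16 further HSP70 and HSP110 genes and exchange factors tested in RNA 0 passed by edgeR, and likewise 0 of 16 further J-domain genes, 0 of 18 HSP90 cochaperones, 0 of 15 further mitochondrial chaperones and proteases, 0 of 6 small heat shock and heat shock factor genes and 0 of 8 subunits of the cytosolic chaperonin CCT. Of all genes 0.15% passed. At an unadjusted p under 0.05 there were 1, 2, 3, 2, 2 and 3, against 12.4% of all genes. With the replicate block 3 genes of these lists passed in RNA, against 3.85% of all genes. They were the exchange factor gene Hspbp1 (lower), the HSP90 cochaperone gene Chordc1 (higher) and the mitochondrial protease gene Yme1l1 (higher), all named after their values were seen. The heat-inducible HSP70 genes were barely present: Hspa1a had 9 to 49 RNA reads per library and Hspa1b 31 to 166. In coding footprints 1 gene of these lists passed, the HSP90 cochaperone gene Fkbp4, which fell from 272 to 305 CPM in untreated libraries to 214 to 230 CPM under tunicamycin (-0.35 ± 0.08, adjusted p = 0.0411), and 5 of 10 alternatives ended that call. Of all genes 2.58% passed in coding footprints. With the block, where 9.55% of all genes passed, Fkbp4 passed. So did Bag4, Bag5, Dnajc2 and Dnajc27 (lower) and Dnajc17 (higher), named after their values were seen. In translational efficiency 0 genes of these lists passed by edgeR, against 1.18% of all genes. An unadjusted p under 0.05 was reached by 2, 6, 6, 3, 2 and 3 of them, against 14.7% of all genes. With the block 2, 2, 2, 0, 0 and 4 passed, all lower, against 7.75% of all genes. In the leader to coding ratio, where 63.9% of all genes rose, 5 of 6, 4 of 7, 10 of 13, 5 of 6, 0 of 2 and 6 of 7 genes tested in these lists rose, with medians of 1.35, 0.88, 0.82, 1.06, 0.49 and 1.25 beside 0.89 for all genes. Trap1, the mitochondrial HSP90, changed by 0.07 ± 0.06 in RNA and 0.10 ± 0.09 in coding footprints (adjusted p = 0.686 and 0.669).

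Among ER chaperones, Hspa5 passed in RNA and others depended on the fit. Hspa5 (BiP), the ER HSP70, went from 471 to 556 CPM in untreated libraries to 779 to 933 CPM under tunicamycin and rose by 0.78 ± 0.08 (adjusted p = 0.00405), the 1 of 18 ER chaperone and disulfide isomerase genes tested that passed. Among all genes tested in RNA 0.15% passed. The median of the 18 was 0.21, and 12 of them had an unadjusted p under 0.05, against 12.4% of all genes. Hsp90b1, the ER relative of the HSP90 genes, had a value of 0.43 ± 0.11 (adjusted p = 0.211), and Pdia4, a disulfide isomerase, 0.71 ± 0.16 (adjusted p = 0.178). With the replicate block 8 of the 18 passed, all higher, against 3.85% of all genes. Among the 8 were Hsp90b1 (0.43 ± 0.05, adjusted p = 0.00533), Pdia4 (0.68 ± 0.05, adjusted p = 0.00136) and the HSP110 relative Hyou1 (0.30 ± 0.04, adjusted p = 0.0148). DESeq2 called Hsp90b1 (adjusted p = 0.0115) and Pdia4 (adjusted p = 0.00119) but not Hyou1. Differences between ER genes and the 10 were not tested.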

How the data were processed

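The deposited table holds raw read counts made by the authors, for footprints on the 5' leader, coding sequence and 3' UTR of each gene and for RNA per gene, and the deposited harringtonine files hold counts at single positions, each kept with at least 20 reads summed over 1 treatment's 3 libraries. The submitters' processing notes name STAR, HTSeq and edgeR and the builds GRCm38 and mm10, without versions or counting options. The test was that of edgeR 4.0.16, run in R 4.3.3 (TMM, filterByExpr with minimum count 10 and minimum total 15, quasi-likelihood test, Benjamini-Hochberg adjustment over all features tested), and every adjusted p comes from it unless another tool is named. An adjusted p under 0.05 passed. TMM sets the typical gene near 0, so a change common to all mRNAs is not seen in RNA, coding footprints or harringtonine reads. Nor is it seen in translational efficiency, or among leaders where these are compared alone. Translational efficiency was the interaction of assay and treatment over 12 libraries. The leader ratio was the interaction of feature and treatment within the 6 cycloheximide libraries, for genes with at least 60 leader reads in all. Leader footprints alone, with TMM among leaders, were added after the data had been seen.

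CPM values are counts scaled to 1e6 reads of a library's total for that measure. Errors are SE of the fit or SD over 3 libraries. Ratios were compared as log2 values with 2-sided exact permutation tests over every split of the libraries into 3 and 3. Wilson intervals came from scipy 1.17.1. On simulated counts with 200 genes changed by log2 1, the tests recovered 97% in RNA, 96% in coding footprints, 72% in translational efficiency and 71.5% in the leader ratio. Recovery of changes smaller than log2 1 was not tested. All changes of the 10 in RNA, coding footprints and translational efficiency were smaller than that. RNA libraries of the same replicate number deviated together (correlations of 0.416, 0.312 and 0.191). Blocked RNA results are therefore given where they change a call. The highest correlation between RNA libraries of different numbers was 0.19. Since the labels state no pairing, the RNA fit without the block stands first. The text names the 10 genes, relatives fixed by name, and of each list genes that passed or had the smallest p. The members, lists and rule were chosen with earlier results of these data known. Alternatives changed the scaling, the filter, the tool (DESeq2 1.42.0), the leader minimum, or the merging of positions, added the replicate block, or dropped 1 library at a time. Levels were not compared between genes, because gene lengths were not used here. The ranks of untreated footprints per RNA among genes carry the same limit. Proteins and a genome sequence were not used here.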

Additional observations from a re-analysis of the deposited data

How the results depend on the processing

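Of 658 values of the 10 genes and 6 of their sites under alternatives, 616 kept their direction and their side of the threshold, 6 lost a call, 15 gained one and 21 changed sign, the last each with a library left out and none with a call. With the replicate number as a block, 410 genes passed in RNA, 1 of the 10 among them (Hspa4), 885 in coding footprints, 1 of the 10 (Hspe1, 0.45 ± 0.06, adjusted p = 0.00015), and 781 in translational efficiency, 5 of the 10: Hspa8 (-0.33, 0.0225), Hsp90aa1 (-0.26, 0.0444), Hsp90ab1 (-0.23, 0.0473), Hspa4 (-0.27, 0.0304) and Hspe1 (0.52, 0.00098). In footprints 1 of the 3 correlations between libraries of the same number was below 0.1 (0.348, 0.094 and 0.277), so the criterion that all be above 0.1 was not met, although each library correlated best with its own number (highest between numbers, 0.024). In harringtonine reads these correlations were 0.481, 0.092 and 0.170, not each library's best, and with the column numbers as a block 3 genes and 5 sites passed, 0 of the 10 genes or their sites among them. Without a filter 122 genes passed in RNA and 573 in coding footprints, 1 of the 10 (Hspe1, adjusted p = 0.00022). DESeq2 called 75 genes in RNA, 367 in translational efficiency, 250 among leaders, 2 in harringtonine reads per gene and 1 site. A leader minimum of 180 reads left 1732 genes passing in the leader ratio.

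With 1 library left out, the genes that passed ranged from 3 to 26 in RNA, 58 to 431 in coding footprints (0 to 1 of the 10), 19 to 306 in translational efficiency (0 to 1), 1760 to 2789 in the leader ratio (3 to 6), 146 to 583 among leaders (1 to 4), 0 to 2 in harringtonine reads per gene and 0 to 4 sites. Values that changed sign ranged from -0.0434 to 0.323 (Hsph1), -0.0318 to 0.0475 (Fkbp4), -0.0445 to 0.004 (Bag4) and -0.147 to 0.0274 (Clpp) in RNA; from -0.14 to 0.17 (Hsph1), -0.0351 to 0.12 (Hspd1), -0.0675 to 0.10 (Hsp90b1) and -0.11 to 0.10 (Pdia4) in coding footprints; and from -0.0419 to 0.11 (Dnajb1), -0.28 to 0.0761 (Hsph1) and -0.0721 to 0.0564 (Trap1) in translational efficiency. Among leaders they ranged from -0.23 to 0.0052 (Hspa4) and -0.39 to 0.0029 (Atf4). In harringtonine reads they ranged from -0.26 to 0.31 (Hspa8), -0.38 to 0.0222 (Hsp90ab1), -0.64 to 0.45 (Dnaja1) and -0.56 to 1.01 (the Hspa8 site at 29 nt). Where a call or count changed, the cause was not tested. Hsp90aa1, Hspe1 and Hspa9 had fewer leader reads than the minimum, and of 54 harringtonine sites 37 passed the filter.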
